A study of Mus musculus with 6 samples.

Results

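The genes described here encode the proteasome, its regulators and the chaperones that assemble it. They were chosen by symbol, as names that begin with Psm, a letter from a to g and a digit, with a level of at least 1 CPM (counts scaled to the library total) in at least 2 of the 4 libraries analysed. Of 49 symbols that match, 45 reached that level, among 12425 genes of the table that did and 23306 in all. One of the 45, Psmc3ip, carries a matching symbol but encodes a partner of the meiotic recombinases, and it is kept apart below, so that 44 proteasome genes remain. The rule used levels alone and no difference between genotypes.

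The data are ribosome-bound RNA from the frontal cortex of male C57BL6 mice, obtained by immunoprecipitation of haemagglutinin-tagged Rpl22. The tag is switched on by Cre recombinase under the parvalbumin promoter, so the pull-down draws mainly on parvalbumin neurons, which are inhibitory cells that fire fast and pace cortical circuits. Mice were either wild type or carried a conditional knockout of Fxr1 made with the same PV-Cre, which removes the gene in Cre-expressing cells only; the Fxr1 protein binds RNA and is related to that of the fragile X gene. The labels describe the PV-Cre::RiboTag cross (Tg(Palvalbumin-cre) with RPL22HA/WT) for both groups and give no ages. Of 6 libraries, 4 are used here, namely replicates 2 and 3 of the wild type and replicates 1 and 3 of the knockout. The labels do not say that each came from a separate mouse, so p-values reflect only how these libraries vary, and that variation may be technical.

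The proteasome is the protease that degrades proteins tagged with ubiquitin. Its barrel-shaped core particle is built from rings of alpha and beta subunits, and 3 of the beta subunits cut peptide bonds inside the chamber. A regulatory particle, made of a base with ATPases and a lid that removes ubiquitin, sits on the core, and other caps can take its place. After exposure to interferon, cells exchange the catalytic subunits for immunoproteasome counterparts. In neurons the proteasome shapes synaptic plasticity through turnover of synaptic proteins. The complex holds its subunits in fixed proportions, and the levels of its transcripts are set beside each other below. Equal transcript levels do not follow from those proportions.

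The libraries held between 9696126 and 10301280 counts. Fxr1, the deleted gene, stood at 97.9 and 101 CPM in wild type libraries and 18.0 and 18.5 CPM in knockout libraries, with no overlap. The 10 genes listed as markers of parvalbumin neurons were led by Gad1 (mean 4235 CPM), and not all are particular to these cells. They summed to 11555 and 11692 CPM in wild type libraries and to 11215 and 11256 CPM in knockout libraries. Both knockout sums were thus lower. Markers of excitatory neurons summed to between 978 and 1072 CPM over 7 genes. Those of astrocytes summed to between 614 and 716 CPM over 7 genes, so transcripts of other cells were present in each library. In such bulk samples, fewer cells of a type and less RNA per cell cannot be told apart. The ribosomal RNA precursor Rn45s made up 0.711% of knockout replicate 1 and between 0.283% and 0.315% of every other library.

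Proteasome transcripts took nearly the same share of each library. The 44 genes together held 0.271% and 0.268% of all counts in the wild type libraries, against 0.271% and 0.263% in the knockout ones. Single genes ranged from 35 counts (Psmg4, in knockout replicate 1) to 2813 counts (Psmd1, in the same library). None of the 44 passed the test for a difference between genotypes: by the quasi-likelihood test of edgeR, adjusted after Benjamini and Hochberg over 12449 genes, 0 of them reached an adjusted p under 0.05, and 0 did so by DESeq2 or limma voom. In the edgeR test 0.0321% of all tested genes passed, 0.0161% higher in knockout and 0.0161% lower. An unadjusted p under 0.05 was reached by 0 of the 44, beside 3.23% of all tested genes, and the lowest was 0.103 by edgeR, for Psma7.

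The intervals of these differences were narrow for the subunits of the complex itself. Fold changes are given as log2 of knockout over wild type, from libraries scaled by TMM (trimmed mean of M values), as are the CPM values of genes below. By edgeR, the 95% interval held 0 for all 44 genes, and for 42 of them it lay within a 1.5-fold change in either direction. All 31 subunits of the core, base and lid were among these, and the widest bound among them was 1.45-fold, for Psmb5. The exceptions were Psmg1 and Psmg4, chaperones of core assembly with few counts; for Psmg1 the interval reached from −0.77 to 0.18. Differences within these intervals could not be told from 0 at this depth. Standard errors depend on the method: that of Psmb5 was 0.15 by edgeR and 0.22 by DESeq2. The counts of genes within 1.5-fold are therefore given for the edgeR fit only.

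**Figure D1:**
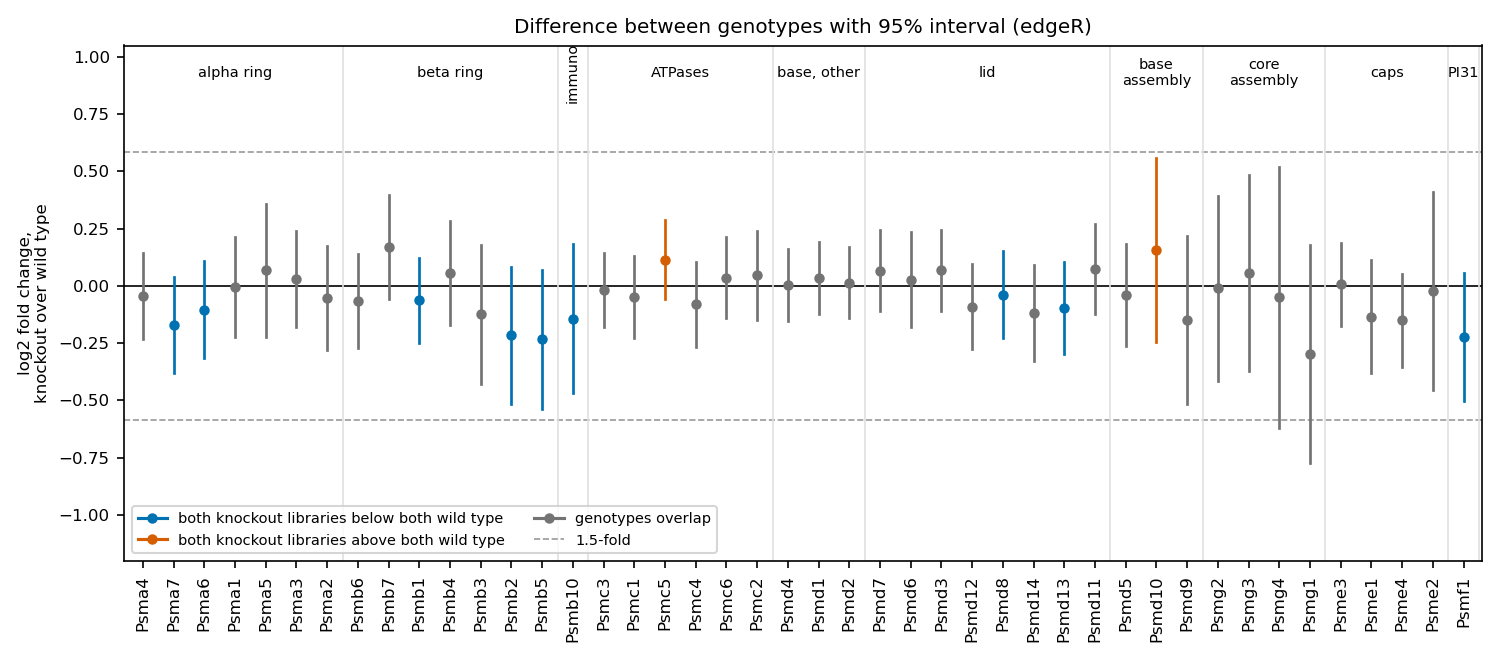
Difference between genotypes for 44 proteasome genes (log2 fold change of knockout over wild type, with the 95% interval from edgeR), ordered by part of the complex; colour marks genes whose libraries did not overlap between genotypes and dashed lines mark 1.5-fold. Every interval crosses 0, and those of Psmg1 and Psmg4 alone reach past the dashed line.

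By direction, 27 of the 44 had lower fitted values in knockout and 17 higher, which is 61.4% lower beside 50.4% of all tested genes, of which 49.6% were higher. Their median log2 fold change was −0.04 and that of all tested genes −0.0015. Both knockout libraries lay below both wild type libraries for 9 of the genes, where 15.2% of all tested genes did so, and above them for 2, where 14.9% did. The 9 were Psma6, Psma7, Psmb1, Psmb2, Psmb5, Psmb10, Psmd8, Psmd13 and Psmf1, and the 2 were Psmc5 and Psmd10. In all, 25% of the proteasome genes did not overlap between genotypes, beside 30.1% of all tested genes. Of the 10 parvalbumin neuron markers, 7 were likewise fitted lower in knockout, with a median of −0.06, and for 4 both knockout libraries lay below both wild type libraries; their part in the proteasome values was not tested. With wild type replicate 3 left out the median of the 44 genes was −0.016, and with knockout replicate 3 left out it was −0.013.

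The alpha ring forms the outer gate of the core. Of its 7 measured subunits, 5 had lower and 2 higher fitted values in knockout, with a median log2 fold change of −0.04; with wild type replicate 2 left out the median was 0.0092, and with knockout replicate 1 left out −0.088. Psma7 measured 56.2 and 48.9 CPM in wild type libraries and 48.1 and 45.2 CPM in knockout libraries (replicates in the order 2 and 3, then 1 and 3, here and below). Wild type replicate 2 stood highest and the other libraries lay close together. The log2 fold change was −0.17 (SE 0.10; by edgeR, adjusted p = 0.998). It was −0.065 with wild type replicate 2 left out and −0.27 with replicate 3 left out. Psma4, the alpha subunit with the highest level per length, measured 103 and 86.2 CPM in wild type libraries and 95.3 and 88.6 CPM in knockout libraries, with overlap. Psma2, the alpha subunit with the lowest level per length, measured 33.1 and 36.4 CPM in wild type libraries and 34.4 and 32.7 CPM in knockout libraries. Psma8, a germ-cell alpha subunit, held between 2 and 5 counts per library and stayed below the chosen level.

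The beta ring holds the active sites. Of its 7 standard subunits, 5 had lower and 2 higher fitted values in knockout, with a median of −0.07; it was 0.013 without knockout replicate 3 and −0.147 without knockout replicate 1. Psmb5, the beta5 subunit with chymotrypsin-like activity, measured 18.8 and 16.7 CPM in wild type libraries and 15.9 and 14.3 CPM in knockout libraries. Both knockout libraries lay below both wild type libraries, by less than the gap between the wild type libraries for the nearest pair. Its log2 fold change was −0.23 (SE 0.15; by edgeR, adjusted p = 0.998). Psmb2, a structural beta subunit, showed the same order, with 18.0 and 17.9 CPM against 16.2 and 14.7 CPM. Psmb6, the beta1 subunit with caspase-like activity, measured 50.2 and 48.8 CPM in wild type libraries and 49.9 and 44.7 CPM in knockout libraries, with overlap. Psmb7, the beta2 subunit with trypsin-like activity, went the other way, at 47.3 and 42.6 CPM in wild type libraries and 56.1 and 45.1 CPM in knockout libraries (log2 fold change 0.17, SE 0.11). Knockout replicate 1 alone stood high, and without it the log2 fold change of Psmb7 was 0.0036. The exons of Psmb7 overlap those of Nek6 on the other strand over 405 bases, and Psmb5 has a processed pseudogene with a 98.9% identical sequence. Some reads of either gene may thus have been shared or dropped. In all, 4 proteasome genes overlap a protein-coding gene on the other strand that held at least 10 counts on average. Besides Psmb7 they were Psmc3 (Slc39a13, 215 bases), Psmd13 (Sirt3, 342 bases) and Psme1 (Emc9, 14 bases).

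Over both rings, the core had a median log2 fold change of −0.06 over its 14 standard subunits, 10 of them lower in knockout, and the base and lid had one of 0.01 over 17 subunits, 7 of them lower. The core median ranged from −0.093 to −0.021 when single libraries were left out. That of the base and lid turned to −0.026 with wild type replicate 2 left out and to −0.032 with knockout replicate 1 left out. Relative to the wild type mean, the median core subunit stood (log2) at 0.02 and −0.02 in the wild type libraries, at −0.02 in knockout replicate 1 and at −0.09 in replicate 3. For the base and lid, the same values were −0.01 and 0.01 for the wild type libraries, then 0.03 for knockout replicate 1 and −0.03 for replicate 3. Knockout replicate 3 was thus the lowest library for both. Of the 44 genes, 30 were higher in knockout replicate 1 than in knockout replicate 3, beside 49.7% of all tested genes. Oligodendrocyte markers, 7 genes, summed to 393 CPM in knockout replicate 3 and to between 274 and 304 CPM in the other libraries. Astrocyte markers summed to 716 CPM in that library and to between 614 and 667 CPM in the others; the part of these cells in the proteasome values was not tested.

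**Figure D2:**
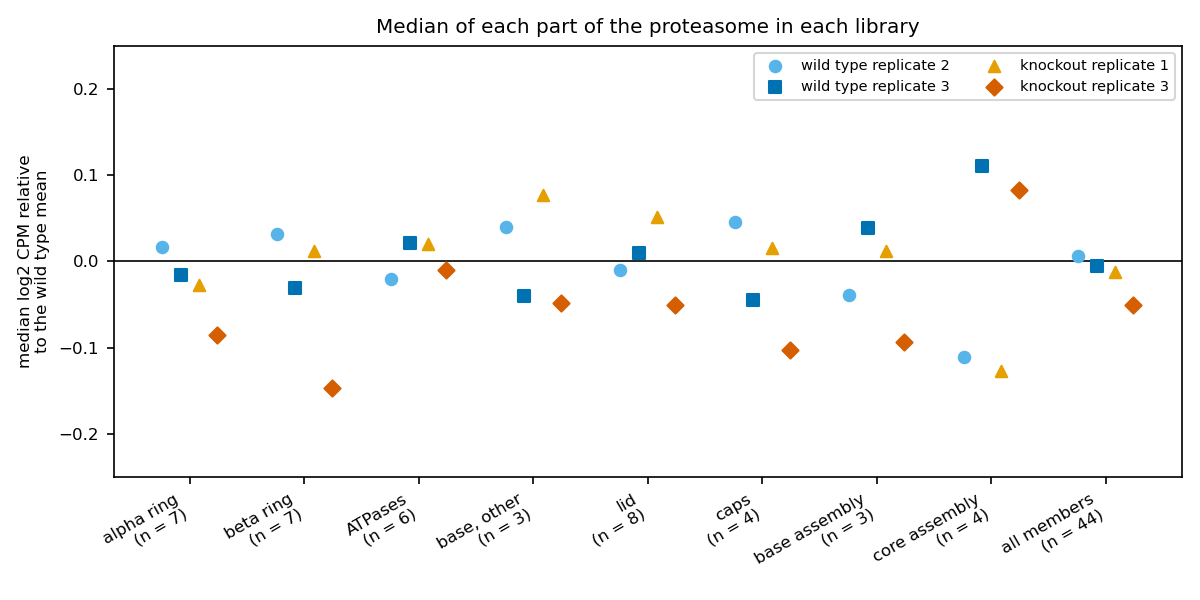
Median log2 CPM of each part of the proteasome in each of the 4 libraries, relative to the wild type mean of each gene; n is the number of genes. Among parts of 3 genes or more, points of the genotypes overlap for all but the alpha ring. Over all 44 genes they also lie apart, at 0.006 and −0.006 in wild type and −0.01 and −0.05 in knockout libraries. For both rings the lowest point is knockout replicate 3, at −0.09 in the alpha ring and −0.15 in the beta ring.

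The immunoproteasome was nearly absent but for a single subunit. Psmb9, the beta1i subunit that replaces Psmb6, had 0 counts in all 4 libraries, which allows up to 0.309 CPM in wild type replicate 2 and slightly less in the others (3 counts of the library, counting error only). Psmb8, the beta5i subunit that replaces Psmb5, had 0 and 0 counts in the wild type libraries against 1 and 7 in the knockout ones. Oligodendrocyte, astrocyte and endothelial marker sums were also highest in knockout replicate 3. The microglia marker sum was not, at 37.7 CPM there and 39.9 CPM in wild type replicate 3. The part of these cells in the Psmb8 counts was not tested. The 7 counts in knockout replicate 3, 0.68 CPM, stood alone above that limit. By contrast Psmb10, the beta2i subunit that replaces Psmb7, held 131 and 149 counts in the wild type libraries against 123 and 136 in the knockout ones. That is 13.4 and 14.6 CPM against 12.2 and 13.1 CPM, with both knockout libraries below both wild type libraries by a small gap (log2 fold change −0.14, SE 0.16; 95% interval −0.47 to 0.18). Psmb11, the thymus-specific beta5t, had 1 count in each wild type library and 0 in each knockout library.

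Per kilobase of transcript, Psmb10 made up 20.1% and 23.2% of Psmb10 and Psmb7 together in wild type libraries and 16.2% and 20.5% in knockout libraries. The 3 immunoproteasome subunits made up 7.61% and 8.71% of all catalytic subunit transcripts in wild type libraries. Of the 3, only Psmb10 held counts there. In knockout libraries the 3 made up 6.80% and 8.61%, with overlapping genotypes. Microglia, the immune cells of the brain, are a textbook site of immunoproteasome expression. Their 8 markers summed to 37.1 and 39.9 CPM in wild type libraries and 36.2 and 37.7 CPM in knockout libraries, with none at 0. The sums of 6 endothelial markers were 13.3 and 10.9 CPM in wild type libraries and 8.56 and 15.8 CPM in knockout libraries. Whether the Psmb10 transcripts come from these cells was not tested.

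**Figure D3:**
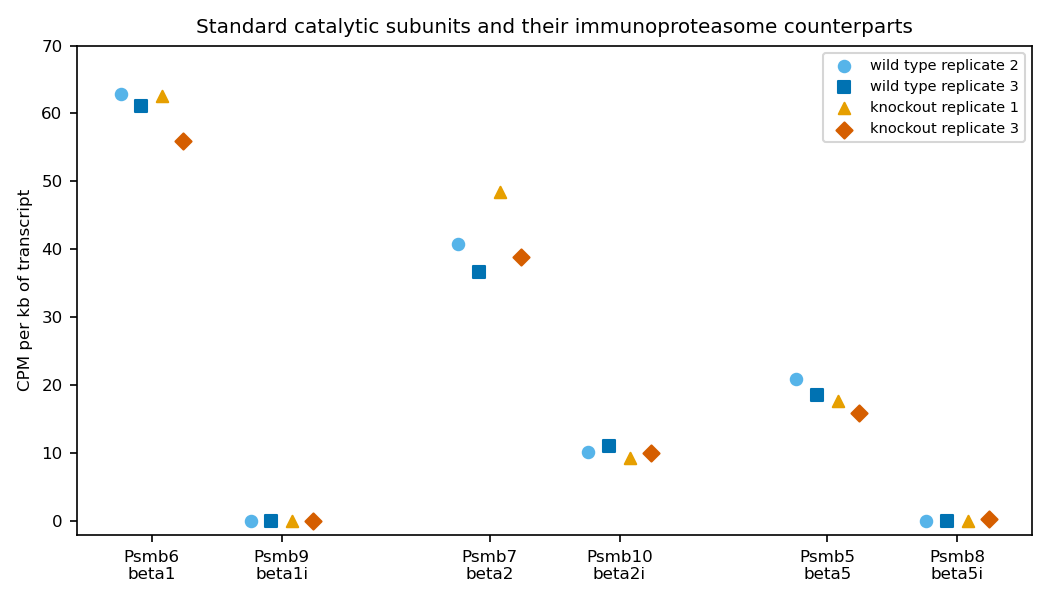
Levels of the standard catalytic subunits and their immunoproteasome counterparts (CPM per kilobase of transcript, 1 point per library). Psmb9 and Psmb8 lie at or near 0 in all 4 libraries, while Psmb10 lies near 10.2, between them and its counterpart Psmb7.

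Promoter windows of these catalytic genes are shown because the members of each pair differ so widely in level. Each runs from 250 bases before to 50 bases after a RefSeq start site (GRCm38.p6), in the direction of the gene. Capitals mark matches to TGACNNNGC, the core of the antioxidant response element through which NFE2L1 drives proteasome genes, or to an IRF-type element (GAAA, any 2 bases, GAAA), on either strand. Each window holds at most 1 match. Psmb7 has no entry in the promoter table used.
Psmb6 (beta1, chr11:70525107-70525406, plus strand): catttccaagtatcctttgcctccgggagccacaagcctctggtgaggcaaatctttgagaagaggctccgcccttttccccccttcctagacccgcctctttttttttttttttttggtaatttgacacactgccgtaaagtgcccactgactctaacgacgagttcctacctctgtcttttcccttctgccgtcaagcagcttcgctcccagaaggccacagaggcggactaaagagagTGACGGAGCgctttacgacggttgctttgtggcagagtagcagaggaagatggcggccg
Psmb9 (beta1i, chr17:34187281-34187580, minus strand): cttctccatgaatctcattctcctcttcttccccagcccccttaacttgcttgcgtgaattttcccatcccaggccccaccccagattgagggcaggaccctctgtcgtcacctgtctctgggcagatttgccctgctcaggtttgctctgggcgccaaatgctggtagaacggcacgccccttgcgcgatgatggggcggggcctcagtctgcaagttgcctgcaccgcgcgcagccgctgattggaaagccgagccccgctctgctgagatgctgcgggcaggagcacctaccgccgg
Psmb10 (beta2i, chr8:105938343-105938642, minus strand): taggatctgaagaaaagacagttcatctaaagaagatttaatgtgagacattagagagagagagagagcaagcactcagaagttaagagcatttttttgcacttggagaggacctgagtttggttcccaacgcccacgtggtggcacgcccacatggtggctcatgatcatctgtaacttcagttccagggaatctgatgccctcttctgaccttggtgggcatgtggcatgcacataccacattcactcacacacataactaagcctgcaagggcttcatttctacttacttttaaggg
Psmb5 (beta5, chr14:54617946-54618245, minus strand): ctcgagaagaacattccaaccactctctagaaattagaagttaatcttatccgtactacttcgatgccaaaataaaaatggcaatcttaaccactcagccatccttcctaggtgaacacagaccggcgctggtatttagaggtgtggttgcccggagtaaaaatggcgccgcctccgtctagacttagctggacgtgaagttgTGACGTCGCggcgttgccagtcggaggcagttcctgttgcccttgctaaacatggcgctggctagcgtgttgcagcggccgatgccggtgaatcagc
Psmb8 (beta5i, chr17:34197945-34198244, plus strand): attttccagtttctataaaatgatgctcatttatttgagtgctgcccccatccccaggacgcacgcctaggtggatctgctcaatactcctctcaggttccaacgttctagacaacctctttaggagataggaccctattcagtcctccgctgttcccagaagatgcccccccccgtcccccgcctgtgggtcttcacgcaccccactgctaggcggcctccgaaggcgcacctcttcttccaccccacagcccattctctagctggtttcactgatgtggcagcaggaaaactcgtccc
The windows of the standard subunits Psmb6 and Psmb5 hold a match to the antioxidant response element, TGACGGAGC at 9 bases and TGACGTCGC at 47 bases before the start site. In the windows of Psmb8, Psmb9 and Psmb10 neither motif was found, which says only that these letters are not in them.

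Over all proteasome genes, the promoter table covered 37 of 44 with 40 windows. The antioxidant response element core was found in 6 windows (15%; Psmb5, Psmb6, Psmc6, Psmd9, Psmd12 and Psme4), beside 12.4% of all 32851 windows. The IRF-type element was found in 12.5% of the 40 windows (Psmb3, Psmd4, Psmd9, Psme1 and Psmg4) and 3.44% of all. CCAAT was found in 30% of the 40 and 37.4% of all. A match is a description of the sequence, not a measured site. The windows of proteasome genes were rich in CpG, with a median of 19 per window beside 7 over all windows.

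The base of the regulatory particle carries the ATPases that unfold substrates and feed them into the core. Of 6 ATPase genes, 3 had higher and 3 lower fitted values in knockout, with a median log2 fold change of 0.01, which became −0.047 when wild type replicate 2 was left out and 0.052 when replicate 3 was. Psmc5 measured 98.7 and 99.7 CPM in wild type libraries and 113 and 102 CPM in knockout libraries (log2 fold change 0.11, SE 0.08; 95% interval −0.06 to 0.29). It was the only ATPase gene whose libraries did not overlap, with knockout higher. Psmc3 had the highest level per length of the ATPase genes on the principal transcript, and the third highest on the union of its exons, at 133 and 139.8 CPM in wild type libraries and 135 and 134 CPM in knockout libraries. Psmc2 had the lowest, at 63.3 and 59.1 CPM in wild type libraries and 66.2 and 60.2 CPM in knockout libraries.

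The other base subunits had the highest median level per kilobase of any part. Psmd4, the ubiquitin receptor Rpn10, measured 188 and 173 CPM in wild type libraries and 176 and 185 CPM in knockout libraries, with a log2 fold change of 0.0030 (SE 0.08). Psmd1, a scaffold of the base, measured 263 and 249 CPM in wild type libraries and 279.5 and 245 CPM in knockout libraries. Psmd2, the scaffold that docks shuttle factors, measured 215 and 229 CPM in wild type libraries and 234 and 214 CPM in knockout libraries. The genotypes overlapped for all 3.

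Of 8 lid genes, 4 were fitted higher and 4 lower in knockout, and the median was −0.01; it was 0.052 without knockout replicate 3 and −0.051 without knockout replicate 1. Psmd14, the metalloprotease Rpn11 that cuts ubiquitin chains from substrates, measured 48.9 and 58.2 CPM in wild type libraries and 49.8 and 49.0 CPM in knockout libraries. Wild type replicate 3 stood above the other libraries, and without it the log2 fold change turned from −0.12 (SE 0.10) to 0.01. Psmd7, which pairs with Psmd14, measured 104 and 98.7 CPM in wild type libraries and 113 and 99.2 CPM in knockout libraries. Psmd11, a lid scaffold whose increase is known to stabilise the assembled complex, measured 55.2 and 52.8 CPM in wild type libraries and 59.1 and 54.5 CPM in knockout libraries. Near-identical transcripts of other loci exist for 9 of the proteasome genes, Psmd2 and Psmd11 among them, as judged by at least 95% identity over 200 bases or more.

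Assembly factors among the 44 genes were low per kilobase, and the largest standard error of the 44 genes, 0.28, was that of Psmg4. Pomp, an assembly factor whose symbol falls outside the rule, measured 51.3 and 52.9 CPM in wild type libraries. It measured 54.6 and 51.8 CPM in knockout libraries, and its level per length was not computed. Base assembly uses Psmd5, Psmd9 and Psmd10 (gankyrin). Psmd10 measured 7.90 and 7.82 CPM in wild type libraries and 9.24 and 8.30 CPM in knockout libraries, with both knockout libraries higher (log2 fold change 0.16, SE 0.20). Psmd9 measured 10.1 and 11.5 CPM in wild type libraries and 10.1 and 9.36 CPM in knockout libraries, and Psmd5 35.4 and 37.3 CPM against 36.7 and 34.1 CPM. Core assembly starts on the chaperones encoded by Psmg1 to Psmg4. Psmg1 measured 6.05 and 8.60 CPM in wild type libraries and 6.86 and 5.11 CPM in knockout libraries. Its log2 fold change, −0.30 (SE 0.23), was the lowest of the 44 genes, from 59 and 88 counts against 69 and 53, and moved to −0.52 when knockout replicate 1 or wild type replicate 2 was left out and to −0.017 when wild type replicate 3 was. Psmg2 measured 9.75 and 8.31 CPM in wild type libraries and 7.75 and 10.1 CPM in knockout libraries, with overlap.

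Other caps open the core without ATP. Psme1 and Psme2 encode the interferon-inducible cap, Psme3 its nuclear relative and Psme4 a large single-chain activator. Per kilobase, Psme1 and Psme2 together made up 46.8% and 43.0% of cap transcripts in wild type libraries and 44.8% and 42.4% in knockout libraries. Psme3 made up 38.4% and 40.1% in wild type libraries and 42.3% and 40.4% in knockout libraries, and Psme4 the remainder, at 14.8% and 16.9% against 12.9% and 17.2%. Psme4 measured 78.7 and 85.3 CPM in wild type libraries and 65.9 and 81.8 CPM in knockout libraries (log2 fold change −0.15, SE 0.10). Knockout replicate 1, the library high in Rn45s, stood lowest, and the part of Rn45s in this was not tested; without it the log2 fold change was −0.0041, and without knockout replicate 3 it was −0.32. Psme3 measured 83.8 and 83.3 CPM in wild type libraries and 88.7 and 79.1 CPM in knockout libraries. Psme2 measured 7.49 and 6.65 CPM in wild type libraries and 7.45 and 6.46 CPM in knockout libraries; a 99.4% identical copy, Psme2b, has no row of its own in the table, so this level may be too low. Psmf1 encodes PI31, a core-binding protein that links proteasomes to motors for transport in axons. It measured 21.3 and 25.6 CPM in wild type libraries and 19.4 and 20.8 CPM in knockout libraries (log2 fold change −0.22, SE 0.14; 95% interval −0.50 to 0.05), with both knockout libraries below both wild type libraries. With wild type replicate 2 left out the log2 fold change was −0.345, and with replicate 3 left out −0.084.

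Transcript levels were far from equal between subunits that the complex holds in equal numbers. Levels are compared here as CPM per kilobase of the principal transcript, as mean ± SD over the 4 libraries. In the alpha ring they ran from 80.1 ± 6.58 for Psma4 to 11.7 ± 0.563 for Psma2, a 6.83-fold range, through Psma7, Psma6, Psma1, Psma5 and Psma3. Neighbours in that order had separate ranges over the libraries except Psma5 and Psma3. In the beta ring they ran from 60.6 ± 3.18 for Psmb6 to 18.3 ± 2.08 for Psmb5, a 3.32-fold range, with overlap between Psmb7 and Psmb1 and among Psmb3, Psmb2 and Psmb5. The ATPases formed an upper set of Psmc3 (82.9 ± 1.76), Psmc1 (81.5 ± 6.40) and Psmc5, which overlapped, above Psmc4, Psmc6 and Psmc2 (34.9 ± 1.78). Some places in these orders depended on the length used: with the union of all exons of a gene, Psmc3 stood at 66.4, below Psmc1 and Psmc5. On that length Psmb1 stood at 18.5 in place of 36.2, which put it below Psmb2, and Psmd4 at 98.3. The low places of Psma2 and Psma3 rest on long principal transcripts, of 2911 and 2846 bases. Before division by length, Psma2 (34.1 CPM) and Psma3 (43.9 CPM) stood above Psma5 (20.4 CPM) as means of the libraries. In the lid the levels ran from 65.7 ± 4.27 for Psmd7 to 19.5 ± 0.941 for Psmd11, with overlap among Psmd3, Psmd12 and Psmd8.

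Between the parts, the median level per kilobase was 30.3 for the 14 core subunits, 64.7 for the ATPases, 83.3 for the other base subunits and 39.4 for the lid. It was 19.6 for the caps, 7.60 for core assembly and 5.81 for base assembly chaperones. Psmd4 was highest at 136 ± 5.24 and Psmd9 lowest at 3.95 ± 0.351, a 34.3-fold range over the 44 genes. The base and lid made up 65.8% and 67.8% of the summed core, base and lid level in wild type libraries and 67.4% and 67.9% in knockout libraries. The genotypes overlapped in that share. These levels use 1 transcript per gene, and reads lost to near-identical copies would lower those of Psma3, Psma4, Psma5, Psmb3, Psmb5, Psmc1, Psmd2, Psmd11 and Psme2.

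**Figure D4:**
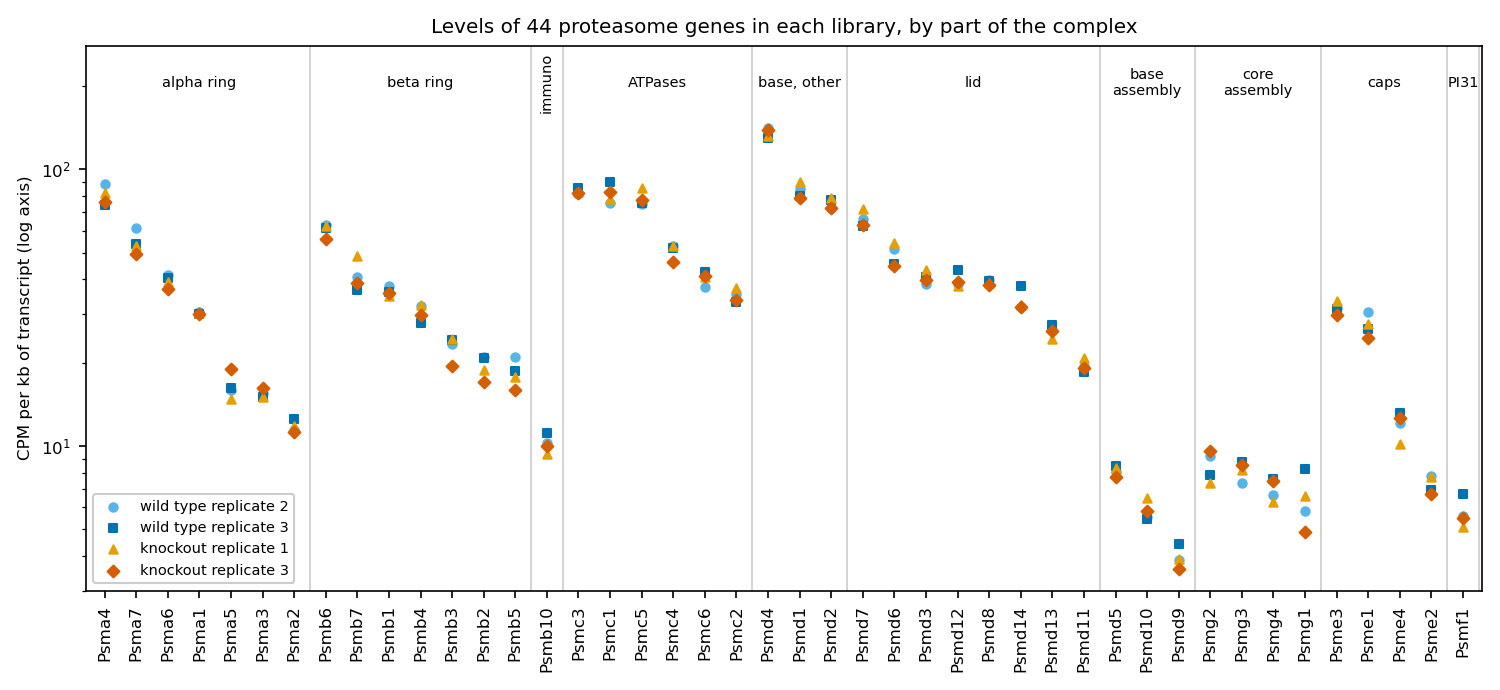
Level of each of 44 proteasome genes in each library (CPM per kilobase of transcript, log axis), by part of the complex. Points of the 4 libraries lie close together for each gene, while genes of a ring differ by up to 6.83-fold.

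Against this range between genes, libraries differed little. The coefficient of variation over the 4 libraries had a median of 6.73% for the proteasome genes, beside 8.41% for all tested genes, and it was under 10% for 36 of the 44. This measure falls with rising counts, so the figures describe these genes and do not set them apart. The median absolute log2 difference between the genotypes was 0.07. Between the wild type libraries it was 0.11 and between the knockout libraries 0.12, although these compare single libraries and not means. Across the 44 genes the log2 fold change and the transcript length had a Spearman's rho of 0.18, and across 11419 tested protein-coding genes one of 0.04; genes share their libraries and are not independent replicates.

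Genes that work with the proteasome were read alongside it, and 0 of the 46 tested passed over all genes by edgeR. An unadjusted p under 0.05 was reached by 1 of them, Erap1. Among other subunits and assembly factors, 7 of 9 had higher and 2 lower fitted values in knockout, with a median log2 fold change of 0.01. Akirin2, which brings proteasomes into the nucleus, measured 41.8 and 41.4 CPM in wild type libraries and 44.02 and 49.4 CPM in knockout libraries (log2 fold change 0.17, SE 0.10). Fbxo7, a partner of PI31, measured 21.1 and 17.6 CPM in wild type libraries and 18.1 and 15.0 CPM in knockout libraries (−0.23, SE 0.15). The subunit genes Adrm1 and Shfm1, whose symbols fall outside the rule, had log2 fold changes of 0.0056 and 0.0032. Of 4 deubiquitinase and ligase genes, 2 were fitted higher and 2 lower; Uchl5 stood at 0.14 (SE 0.12) and Ube3a, the ligase lost in Angelman syndrome, at 0.07 (SE 0.07).

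Of 12 genes for shuttle factors and the unfoldase VCP with its cofactors, 8 were fitted higher and 4 lower, with a median of 0.03. The VCP cofactor genes Faf1 and Nploc4 had the smallest p of these. Faf1 measured 49.7 and 55.7 CPM in wild type libraries and 61.1 and 59.0 CPM in knockout libraries (0.19, SE 0.10), without overlap, and Nploc4 54.9 and 64.5 CPM against 63.3 and 70.1 CPM (0.16, SE 0.10). Ubiquitin and its activating enzymes were fitted higher for 3 and lower for 4 of 7 genes. Rps27a, which encodes ubiquitin fused to a ribosomal protein, measured 47.6 and 53.7 CPM in wild type libraries and 37.8 and 48.2 CPM in knockout libraries (−0.24, SE 0.11), with overlap; the log2 fold change was −0.071 with knockout replicate 1 left out and −0.42 with replicate 3 left out. Uba3, which activates the ubiquitin-like NEDD8, stood at −0.13 (SE 0.09).

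NFE2L1 (NRF1) is the transcription factor that raises proteasome genes when the proteasome is short of capacity. Of 7 tested genes of its route, 5 were fitted higher in knockout and 2 lower, with a median of 0.07, and 5 did not overlap between genotypes, all higher, where 14.9% of all tested genes did so. Among the 5 was Mafk, a gene of low level, from 1.54 CPM in wild type replicate 2 to 2.03 CPM in knockout replicate 3 (95% interval −0.62 to 1.02). Nfe2l1 itself measured 486 and 508 CPM in wild type libraries and 531 and 514 CPM in knockout libraries (0.07, SE 0.07; 95% interval −0.07 to 0.21). Mafg, a small partner of such factors, measured 34.6 and 30.4 CPM in wild type libraries and 36.7 and 38.3 CPM in knockout libraries (0.21, SE 0.11). Syvn1, a ligase of the endoplasmic reticulum, measured 38.5 and 35.4 CPM in wild type libraries and 39.9 and 42.6 CPM in knockout libraries (0.16, SE 0.11). None of the 7 passed (adjusted p = 0.998 by edgeR for each of these 3). Nfe2l2 stayed under 1 CPM in each library and was not tested.

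Peptides cut by the proteasome are shown to T cells on MHC class I. Of 8 tested genes of that route, 4 were fitted higher and 4 lower in knockout, with a median of −0.01. Both knockout libraries lay above both wild type libraries for 3 of them and below for 3, beside 14.9% and 15.2% of all tested genes. Erap1, which trims peptides, measured 6.26 and 6.16 CPM in wild type libraries and 4.07 and 4.44 CPM in knockout libraries, without overlap (log2 fold change −0.54, SE 0.24; by edgeR, adjusted p = 0.998). Tap1, the peptide transporter gene next to Psmb9, held at most 0.393 CPM in any library.

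**Figure D5:**
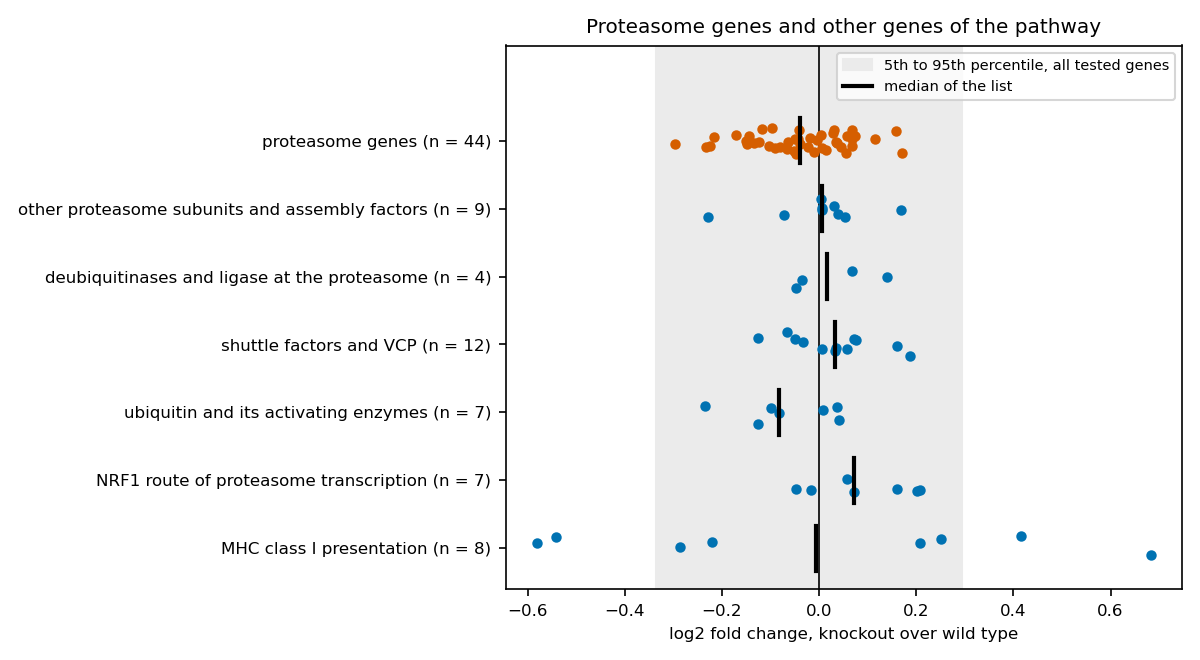
Log2 fold changes of knockout over wild type for the 44 proteasome genes and for 6 lists of genes that work with the proteasome, 1 point per gene, with the median of each list; the shaded band holds the 5th to the 95th percentile of all tested genes (−0.34 to 0.29). All proteasome genes lie inside the band, and the widest spread is that of the MHC class I list.

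Some members lie close together in the genome (GENCODE M21, mm10). Psme1 (chromosome 14, 55578123 to 55581529) and Psme2 (55587441 to 55591113) lie on opposite strands, and both were fitted lower in knockout, at −0.13 (SE 0.12) and −0.02 (SE 0.21). Psmb5 lies on the same chromosome, from 54614119 to 54618022. Psmb9 and Psmb8 lie in the MHC region of chromosome 17, where exons of Psmb9 overlap those of Tap1 over 212 bases, and Psmb10 (chromosome 8, 105935735 to 105938444) lies elsewhere.

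Psmc3ip, the gene that met the rule by its symbol alone, was also the one nearest the level set. It measured 0.619 and 1.26 CPM of the library total in wild type libraries and 1.08 and 1.46 CPM in knockout libraries; its exons overlap those of Mlx on the other strand. The next lowest member, Psmg4, ranged from 3.44 to 4.18 CPM. The highest value among the symbols left out was the 0.68 CPM of Psmb8 in knockout replicate 3.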

How the data were processed

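The table the authors deposited holds raw counts, 1 whole number for each gene symbol and library. The submitters' processing notes name STAR and mm10; per the labels' protocols, the kit for total RNA was a stranded one. How reads were counted, with which annotation and strand setting, is not given in the sources used here. Overlapping genes and near-identical copies may share or lose reads. Of 6 columns, 4 each match the title of 1 sample and were used; the 2 others share 1 sample's title and were not used. Genotypes come from the labels, and replicate numbers from accession order. Library totals were 9696126 to 10301280 counts.

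The test was that of edgeR 4.0.16 under R 4.3.3 (TMM, filterByExpr, robust quasi-likelihood fits, Benjamini-Hochberg over 12449 genes, threshold 0.05); 95% intervals are the log2 fold change with its standard error and the fit's degrees of freedom. On simulated data drawn from these libraries (12307 genes tested), the test recovered 83.6% of 67 genes changed 1.5-fold and all changed 2-fold or 4-fold, with 8 false calls among 197. The changed genes were drawn above a set mean level that Psmg1 to Psmg4, Psme2 and Psmd10 did not reach. The recovery figures therefore do not cover those genes. Simulated scatter followed the mean level alone, without differences between genes of a level, so recovery in the real data may be lower. The number of calls also differed, at 197 in the simulation and 4 in the real data. Adjustment after Benjamini and Hochberg is stricter when fewer genes pass. A change of 1.5-fold was thus harder to call in the real data than these recovery figures show. Lengths are of the RefSeq-linked principal transcript in GENCODE M21, and near-identical transcripts were sought with blastn 2.17.0. Alternatives tried were DESeq2 1.42.0 (test and size factors), limma voom 3.58.1, library totals, non-robust fits, no filter or at least 5 CPM in 3 libraries, a threshold of 0.1, no ribosomal or small RNA genes, and each library left out. Named were the catalytic subunits, in each part the smallest p and the highest and lowest level per length, and in each pathway list the 2 smallest p, except 1 gene that is not reported here; other genes were named for their position in the data or genome after their values were seen. The members and lists were chosen with earlier results of these data known. The motifs other than TGACNNNGC were chosen after seeing the data.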

Additional observations from a re-analysis of the deposited data

How the results depend on the processing

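No proteasome gene passed the threshold in any of the 13 alternatives (a count of 0 in each). Genes fitted lower in knockout numbered 23 to 32 and higher 12 to 21, against 27 and 17. The median log2 fold change of the 44 genes kept its sign in all 12 fits and lay between −0.051 and −0.013 with single libraries left out. The immunoproteasome share differed by −0.454 percentage points (knockout minus wild type) and by −0.673 without division by length; leaving Psmb9 out, as planned, could not change it, since Psmb9 has 0 counts. The count of members was 44 with 1 CPM required in all libraries and 43 with 5 CPM in 2. Of 431 refits of 36 genes chosen by the rule for named genes, 22 turned sign and 0 passed (lowest adjusted p = 0.235 by edgeR). All 22 came from leaving out a library, and the cause was not tested. Over the libraries left out, the log2 fold changes of these 15 genes spanned Psmb6 −0.15 to 0.013, Psmd1 −0.064 to 0.13, Psmd4 −0.053 to 0.065, Psmd2 −0.050 to 0.076, Psme3 −0.079 to 0.088, Psme2 −0.13 to 0.078, Psmd14 −0.23 to 0.014, Psmd7 −0.032 to 0.16, Psmc3 −0.049 to 0.018, Psmc2 −0.024 to 0.11, Psma4 −0.17 to 0.095, Psma2 −0.11 to 0.018, Psmg2 −0.22 to 0.17, Psmd5 −0.095 to 0.012 and Uchl5 −0.044 to 0.305. Those that kept their sign spanned Psmb5 −0.315 to −0.145, Psmb7 0.0036 to 0.32, Psmb10 −0.197 to −0.084, Psme4 −0.316 to −0.0041, Psmd11 0.014 to 0.132, Psmc5 0.038 to 0.188, Psma7 −0.269 to −0.065, Psmg1 −0.522 to −0.017, Psmd9 −0.24 to −0.044, Psmf1 −0.345 to −0.084, Akirin2 0.082 to 0.248, Fbxo7 −0.371 to −0.089, Ube3a 0.053 to 0.084, Faf1 0.11 to 0.274, Nploc4 0.052 to 0.283, Rps27a −0.423 to −0.071, Uba3 −0.221 to −0.020, Mafg 0.118 to 0.305, Syvn1 0.102 to 0.224 and Erap1 −0.605 to −0.483. A genotype left with 1 library is assumed to vary like the other. Length as the union of exons was an alternative chosen after seeing the data. It kept the highest over the lowest level in each part within 1.5-fold of its value. In the alpha ring, the beta ring and base assembly, the highest and lowest genes have equal lengths by both measures. Their ratio was thus unchanged and not put to the test. Places within parts did change: Psmb1 moved from 36.2 to 18.5 and Psmc3 from 82.9 to 66.4. No paired analysis was possible because replicates were numbered by accession, which pairs nothing. Depth limits Psmg4 most, at 35 to 43 counts per library, and also Psme2, at 67 to 75.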
